A study of Drosophila melanogaster with 6 samples.

Results

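ZAM, gypsy and related elements are long terminal repeat (LTR) retrotransposons of the Gypsy class, and their reads were followed here through 6 eCLIP libraries of the piRNA pathway protein Asterix (Gtsf1). The members are all annotated transposon copies of the Gypsy class whose element name holds 1 of 12 names (the number alone for DM176 and DM297): ZAM, IDEFIX, DM176, DM297, TIRANT, ROVER, QUASIMODO, GTWIN, SPRINGER, TABOR, ACCORD or GYPSY. The rule finds 3948 copies of the 123041 annotated features, and SPRINGER matches none of them. Summed by element, with internal and LTR parts kept apart, they form 55 element parts (26 internal, 28 LTR and the unspecified Gypsy_DS) among 106016 entries. The suffixes I-int, I_DM, LTR and LTR_DM in the annotation mark the internal and LTR parts.

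The source of all libraries was the Drosophila ovarian line OSS (ovarian somatic sheath), transfected with a plasmid for Asterix that carries a TEV-Strep tag at its C-terminus and is driven by the actin 5C promoter. In eCLIP, RNA is crosslinked to protein by ultraviolet light and trimmed with RNase, and the RNA recovered with the protein (IP, here on Strep-binding beads) is sequenced beside the input. There were 2 crosslinked input libraries and 2 crosslinked IP libraries, made after irradiation at 254 nm (400 mJ), and 1 non-crosslinked input and 1 non-crosslinked IP, which have no replicate check. By the labels' design and protocol the non-crosslinked cells carried the plasmid too, so RNA held by the beads and RNA bound to Asterix without crosslinking cannot be told apart, and no library from untransfected cells was analysed here. The labels do not say whether replicates came from separate cultures, so p-values measure only the spread between these libraries.

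Asterix is a zinc finger protein that works with Piwi, the nuclear Argonaute protein, in transcriptional silencing of transposons. In the somatic cells of the fly ovary the main source of piRNAs is the flamenco locus, a cluster rich in remnants of gypsy, ZAM, IDEFIX and their relatives, and loss of this silencing lets these elements be transcribed. The internal part of such an element encodes gag, pol and often env proteins, and the LTRs at its ends carry the promoter and the polyadenylation signal.

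The inputs held 12391586 to 13658478 annotated reads and the IP libraries 2018241 to 2921685. Levels are given as counts per 1000000 annotated reads (CPM), on which scale 3 reads weigh 0.220 to 0.242 CPM in an input and 1.03 to 1.49 CPM in an IP library. Ribosomal RNA took 85.6% to 87.0% of annotated reads in the inputs, 68.0% and 69.5% in the crosslinked IP and 60.1% in the non-crosslinked IP. Genes that ovarian somatic cells should express (tj, Fas3, zfh1, fs(1)Yb, piwi, armi, vret and shu) all had reads in every input. This list was not limited to genes particular to somatic cells. Its summed exon levels were 212 to 277 CPM in the inputs. In the IP libraries they were 357 to 692 CPM, of which piwi alone made 144 to 517 CPM. Markers of germline cells (7 of 8 with an exon feature listed: vas, nos, aub, AGO3, krimp, bam and qin) summed to 3.53 to 5.20 CPM in the inputs. There krimp made 2.48 to 4.39 CPM, above vret and shu of the first list, while vas had 0.110 CPM at most and bam was listed at 0. In the IP libraries the germline sum was 15.4 to 24.6 CPM. Of it, aub made 13.5 and 8.59 CPM in the crosslinked IP libraries and qin 8.92 CPM in the non-crosslinked IP. The part of either list in the results was not tested. Fewer cells of a type and less RNA per cell cannot be told apart in bulk libraries. Replicates were further apart than counting noise, with a chi-square over the members of 9.15 per degree of freedom between the inputs with crosslinking (42 parts) and 7.09 between the crosslinked IP libraries (43 parts).

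Reads of ZAM and the other members were a small share of every library, and most of them were ZAM. The members took 0.553% of annotated reads in the non-crosslinked input (95% Wilson interval 0.549% to 0.557%) and 0.453% and 0.595% in the crosslinked input libraries. They took 0.814% in the IP without crosslinking (interval 0.802% to 0.826%), and 0.905% and 1.06% in the crosslinked IP libraries. All 3 IP libraries lay above all 3 inputs. The crosslinked means were 0.524% ± 0.101 in the input and 0.981% ± 0.108 in the IP (SD, n = 2 each), a log2 ratio of 0.91. An exact permutation test, two-sided, gave p = 0.33, the smallest p that 2 libraries against 2 allow. Without ribosomal RNA in the total the order turned, with 3.66% ± 0.670 in the crosslinked input and 3.15% ± 0.453 in the crosslinked IP (SD, n = 2 each; log2 ratio -0.22, exact permutation p = 0.667). Since it is not known that reads are independent molecules, intervals and floors here cover only the counting error.

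ZAM_I-int, the internal part of ZAM, held 68.7% ± 3.14 of member reads in the crosslinked input libraries and 68.7% ± 3.53 in the crosslinked IP libraries (SD, n = 2 each; exact permutation p = 1). In the non-crosslinked libraries it held 72.1% of member reads in the input (interval 71.8% to 72.4%) and 57.7% in the IP (interval 57.0% to 58.5%), the lowest of the 6 libraries. These are shares of reads, not of transcripts, because element lengths are not in the files used here. With ZAM left out, which was chosen after the values were seen, the members took 0.107% ± 0.00797 of annotated reads in the crosslinked input and 0.244% ± 0.00503 in the crosslinked IP (SD, n = 2 each; exact permutation p = 0.33). The non-crosslinked values without ZAM were 0.100% in the input and 0.295% in the IP, the highest of the 6 libraries (intervals 0.0983% to 0.102% and 0.288% to 0.303%).

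**Figure D1:**
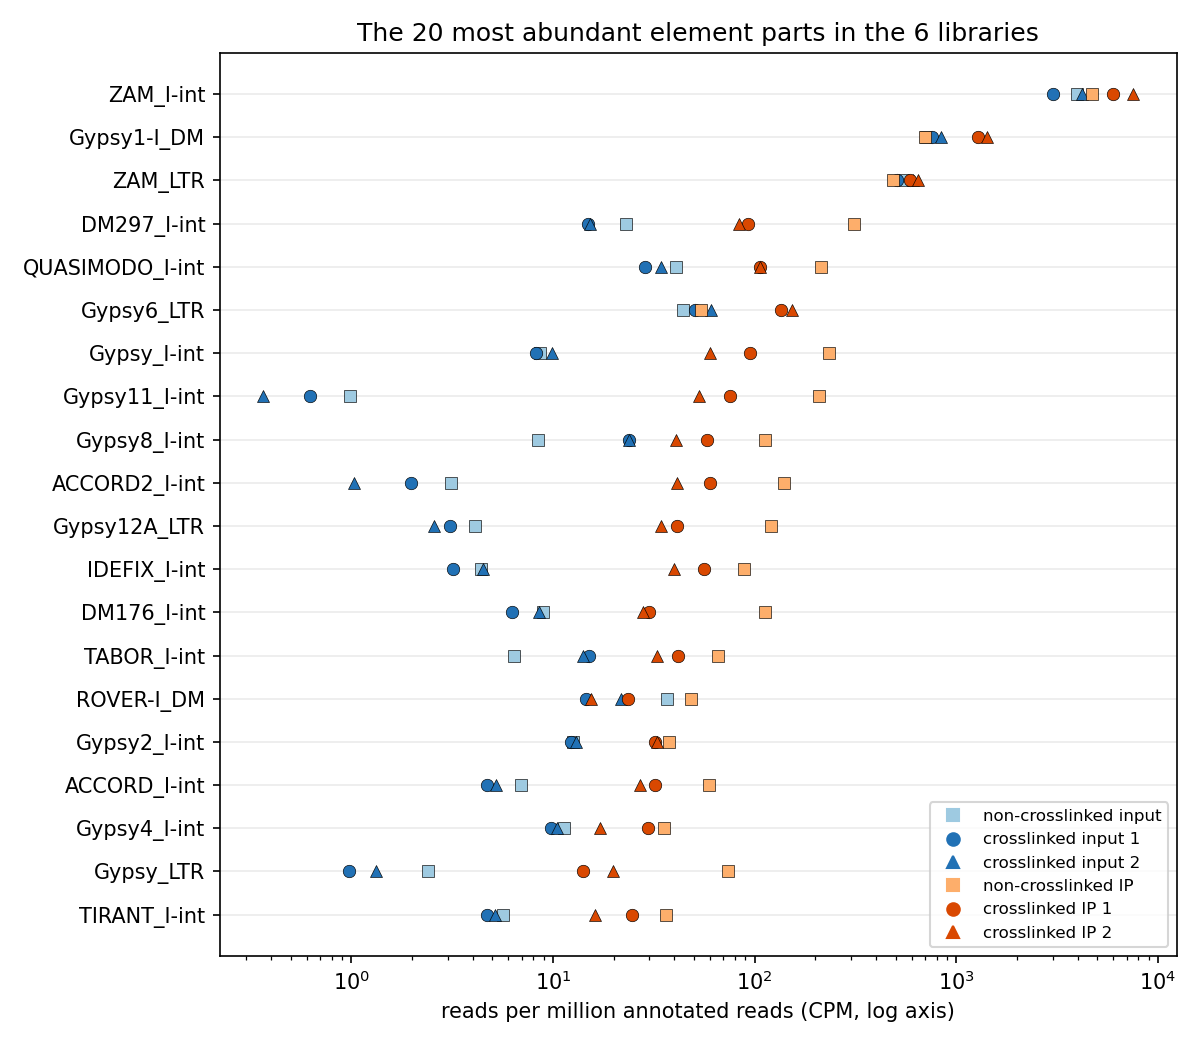
CPM (log axis) of the 20 element parts with the highest mean level, 1 point per library: blue for inputs, orange for IP, squares for non-crosslinked, circles and triangles for crosslinked replicates 1 and 2. ZAM_I-int is the topmost part, at 3007 to 7524 CPM, and for most of the less abundant parts the non-crosslinked IP is the rightmost point.

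Each element part was then compared between crosslinked IP and crosslinked input over the whole table (edgeR, quasi-likelihood test, Benjamini-Hochberg adjustment, threshold 0.05). Of the 55 parts, 43 had enough reads to be tested, and 12 had not, none of them with more than 8 reads in a crosslinked library. Higher levels in the IP passed the test for 25 of the 43 parts (58.1%), where 28.7% of all 13079 tested entries were higher. Lower levels passed for 2 parts (4.65%), ZAM_LTR and ROVER-I_DM, where 27.9% of all entries were lower. The median log2 fold change over the tested members was 1.13, beside -0.08 over all entries. Of the 43, 4 parts had under 10 reads in both crosslinked input libraries and all 4 were called higher, and 21 of the 39 others were. The filter on low values, which works on CPM, let these 4 in only through the IP, which favours a call of higher. It did the same for Gypsy7_I-int, Gypsy2-LTR_DM, Gypsy_LTR and ACCORD2_I-int, called higher. DM297_LTR, ACCORD_LTR, ROVER-LTR_DM, TABOR_LTR, Gypsy9_I-int and QUASIMODO2-I_DM entered likewise and were not called. These were listed after their values were seen. With at least 10 reads in every library 19 of 33 parts were higher (57.6%), beside 31.6% of all entries.

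As a set, the other elements of the Gypsy class had similar values: 20 of 37 tested parts were higher, 1 was lower, and the median was 1.05. In the Copia and Pao classes, 6 of 19 tested parts were higher, 5 were lower and the median was -0.28. Among the members, 17 of 26 internal parts were higher and 1 was lower (median 1.20), and 8 of the 17 tested LTR parts were higher and 1 was lower (median 1.00). Of these 8 LTR parts, Gypsy6A_LTR, DM176_LTR, Gypsy4_LTR, Gypsy2-LTR_DM and Gypsy_LTR were let in only through the IP. They were listed after their values were seen.

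The fold changes rest on the scaling of the libraries. TMM factors were used, and scaling by library size alone moved the median of all entries to 0.76, with 38 members higher and 0 lower where 44.5% of all entries were higher, while library size without ribosomal RNA moved it to -0.73, with 22 higher and 2 lower. Relative to the median of all entries, the member median was 1.20 (TMM), 1.21 (library size) and 1.57 (without ribosomal RNA). Against a control group of all inputs plus the IP without crosslinking, 0 of 49 members and 2 of all 15378 entries (0.013%) passed edgeR's test, and 3 members had an unadjusted p under 0.05. That control mixes inputs with an IP, and its common dispersion was 0.574 beside 0.018 in the main fit, so the fit had little power for any entry.

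**Figure D2:**
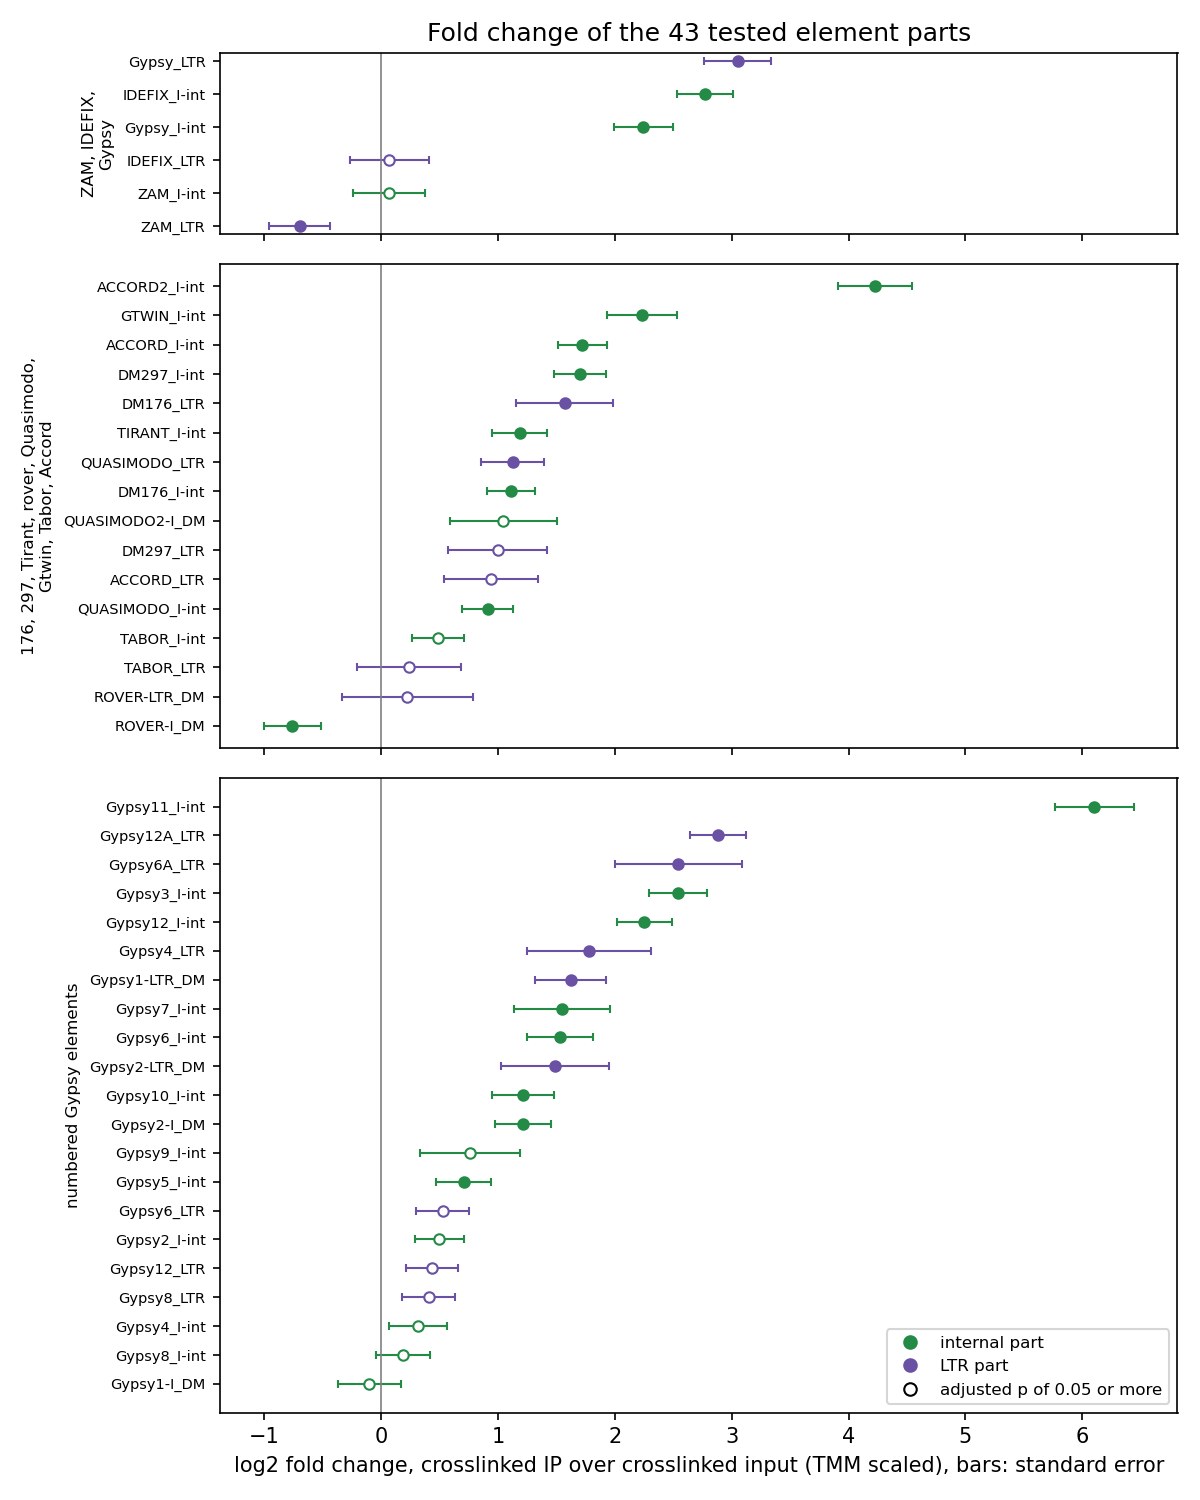
Log2 fold change of crosslinked IP over crosslinked input (TMM scaled, 2 libraries each) for the 43 tested element parts, with standard errors as bars, green for internal and purple for LTR parts, filled where the adjusted p was under 0.05. Gypsy11_I-int (6.10) and ACCORD2_I-int (4.22) lie farthest right, and ZAM_LTR and ROVER-I_DM are the filled points left of 0.

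Among ZAM, IDEFIX and gypsy itself, the internal parts of gypsy and IDEFIX and the gypsy LTR rose in the crosslinked IP, ZAM_LTR fell, and neither ZAM_I-int nor IDEFIX_LTR passed the test. These are the elements best known as targets of flamenco. ZAM_I-int stood at 3988 CPM in the non-crosslinked input and at 3007 and 4218 CPM in the crosslinked input libraries. Its IP levels were 4700 CPM without crosslinking and 5989 and 7524 CPM with it. The crosslinked IP libraries lay above all other libraries in CPM, but after TMM scaling the log2 fold change was 0.07 (SE 0.31, adjusted p = 0.862 by edgeR's quasi-likelihood test). With library size alone it was 0.90 and passed the test.

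ZAM_LTR, the repeat that starts and ends the ZAM transcript, stood at 544, 506 and 607 CPM in the non-crosslinked input and the crosslinked input libraries 1 and 2. Its level was 487 CPM in the non-crosslinked IP, with 588 and 646 CPM in the crosslinked IP libraries. The input and IP ranges overlapped in CPM. After TMM scaling ZAM_LTR was lower in the IP (log2 fold change -0.70, SE 0.26, adjusted p = 0.0371 by edgeR's quasi-likelihood test). This call was lost without crosslinked input 2, without crosslinked IP 1 and without crosslinked IP 2, and with library size alone the value was 0.15. The direction against ZAM_I-int, which needs no scaling, is given with the LTR ratios.

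Gypsy_I-int, from the element that gave the class its name, had 8.60 CPM in the non-crosslinked input and 8.23 and 9.85 CPM in the crosslinked input libraries. It had 234 CPM in the non-crosslinked IP and 95.3 and 60.2 CPM in the crosslinked IP libraries. All IP libraries were above all inputs, and the non-crosslinked IP was the highest. The crosslinked IP exceeded the crosslinked input by a log2 fold change of 2.24 (SE 0.25, adjusted p = 8.49e-06 by edgeR's quasi-likelihood test). Gypsy_LTR rose by 3.05 (SE 0.29, adjusted p = 1.95e-06), from 0.968 and 1.32 CPM to 14.0 and 19.8 CPM, with 2.40 CPM in the non-crosslinked input and 73.8 CPM in the non-crosslinked IP. Gypsy_DS was not tested and had under 2 reads in each library.

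IDEFIX_I-int had 4.40 CPM in the non-crosslinked input, 3.19 and 4.50 CPM in the crosslinked input libraries, 88.9 CPM in the non-crosslinked IP and 56.1 and 39.6 CPM in the crosslinked IP libraries. The groups did not overlap, and the log2 fold change was 2.77 (SE 0.24, adjusted p = 8.59e-07 by edgeR's quasi-likelihood test). IDEFIX_LTR went from 2.26 and 2.70 CPM in the crosslinked input libraries to 6.34 and 3.45 CPM in the crosslinked IP, with 3.04 and 25.3 CPM in the non-crosslinked input and IP. Its log2 fold change was 0.07 (SE 0.34, adjusted p = 0.875).

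In the second group, made of the relatives DM176, DM297, Tirant, rover, Quasimodo, Gtwin, Tabor and Accord, 7 of 10 internal parts rose and 1 fell, and 2 of 6 tested LTR parts rose, the latter near the 28.7% of all entries that were higher. Their internal parts together went from 93.9 and 108 CPM in the crosslinked input libraries to 437 and 364 CPM in the crosslinked IP, beside 136 CPM in the non-crosslinked input and 1035 CPM in the non-crosslinked IP. DM297_I-int and QUASIMODO_I-int had the most reads. DM297_I-int was at 14.8 and 15.2 CPM in the crosslinked input libraries and at 93.2 and 83.4 CPM in the crosslinked IP libraries, with 22.9 and 310 CPM in the non-crosslinked input and IP (log2 fold change 1.70, SE 0.22, adjusted p = 2.95e-05 by edgeR's quasi-likelihood test). QUASIMODO_I-int was at 28.5 and 34.3 CPM in the crosslinked input libraries and at 106 and 106 CPM in the crosslinked IP libraries, with 40.6 and 213 CPM in the non-crosslinked pair (0.91, SE 0.22, adjusted p = 0.00325). In both, the non-crosslinked IP was the highest of the 6 libraries.

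ACCORD2_I-int had the largest rise of this group. It had 1.98 and 1.03 CPM in the crosslinked input libraries, 59.7 and 41.0 CPM in the crosslinked IP, and 3.11 and 139 CPM in the non-crosslinked input and IP (log2 fold change 4.22, SE 0.32, adjusted p = 2.52e-07 by edgeR's quasi-likelihood test). ROVER-I_DM went the other way after scaling. Its levels were 14.6 and 21.7 CPM in the crosslinked input libraries and 23.6 and 15.5 CPM in the crosslinked IP libraries, which overlap, and 36.8 and 48.3 CPM in the non-crosslinked pair (log2 fold change -0.76, SE 0.25, adjusted p = 0.0182). That call was lost without crosslinked input 2 and without crosslinked IP 2, and with library size alone the value was 0.08.

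The numbered Gypsy elements hold both the second most read element, Gypsy1, and the largest rise of all tested members, Gypsy11_I-int. Of their 13 internal parts 8 rose, and of the 8 tested LTR parts 5 rose, and none fell, beside 28.7% of all entries higher and 27.9% lower. Of the 5 LTR parts, Gypsy6A_LTR, Gypsy4_LTR and Gypsy2-LTR_DM were let in by the filter on low values only through the IP, which favours a call of higher. Gypsy1-I_DM had 711 CPM in the non-crosslinked input and 757 and 839 CPM in the crosslinked input libraries, beside 696 CPM in the non-crosslinked IP and 1274 and 1412 CPM in the crosslinked IP. As for ZAM_I-int, only the crosslinked IP libraries stood out in CPM. The log2 fold change after TMM scaling was -0.10 (SE 0.27, adjusted p = 0.763 by edgeR's quasi-likelihood test) and with library size alone 0.75.

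Gypsy11_I-int was nearly absent from the inputs. It had 0.980 CPM in the non-crosslinked input and 0.625 and 0.366 CPM in the crosslinked input libraries, from 7.75 and 5.00 estimated reads. The IP levels were 208 CPM without crosslinking and 75.2 and 53.1 CPM with it (log2 fold change 6.10, SE 0.34, adjusted p = 2.81e-08 by edgeR's quasi-likelihood test). Gypsy12A_LTR rose from 3.09 and 2.56 CPM to 41.3 and 34.3 CPM, with 4.11 and 121 CPM in the non-crosslinked pair (2.88, SE 0.24, adjusted p = 6.04e-07). In both, every IP library was above every input and the non-crosslinked IP was the highest.

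Gypsy6_LTR and Gypsy8_I-int, also among the 10 parts with the highest mean level, did not pass the test. Gypsy6_LTR was at 50.9 and 60.6 CPM in the crosslinked input libraries and at 135 and 153 CPM in the crosslinked IP, with 43.9 and 54.0 CPM in the non-crosslinked pair (log2 fold change 0.53, SE 0.23, adjusted p = 0.0646 by edgeR's quasi-likelihood test). Gypsy8_I-int was at 23.7 and 23.8 CPM in the crosslinked input libraries and at 58.0 and 40.8 CPM in the crosslinked IP, with 8.44 and 113 CPM in the non-crosslinked pair (0.18, SE 0.23, adjusted p = 0.509).

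The non-crosslinked IP shows what is recovered without crosslinking, and for most elements that rose it was the IP library with the highest level. Of the 25 parts that rose in the crosslinked IP, 22 had a higher CPM in the non-crosslinked IP than in both crosslinked IP libraries, and over all 3757 entries called higher this held for 66.4%. The other 3 were Gypsy3_I-int, Gypsy1-LTR_DM and Gypsy2-LTR_DM, named after their values were seen. When both IP libraries were set against the mean crosslinked input and the non-crosslinked IP against its own input, 38 tested parts had over 3 reads in all 6 libraries. In 25 of them the non-crosslinked ratio was above both crosslinked ratios, in 11 it was below both, and in 2 it lay between. Of all 6332 tested entries with over 3 reads in all 6 libraries, 46.1% had the non-crosslinked ratio above both and 37.6% below both. The parts below included ZAM_I-int (log2 ratio 0.24 without crosslinking, 0.73 and 1.06 with it), Gypsy1-I_DM (-0.03 against 0.68 and 0.82), ZAM_LTR (-0.16 against 0.08 and 0.21) and Gypsy6_LTR (0.30 against 1.28 and 1.46). DM297_I-int (3.76 against 2.63 and 2.47) and Gypsy_I-int (4.77 against 3.40 and 2.73) were among those above.

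**Figure D3:**
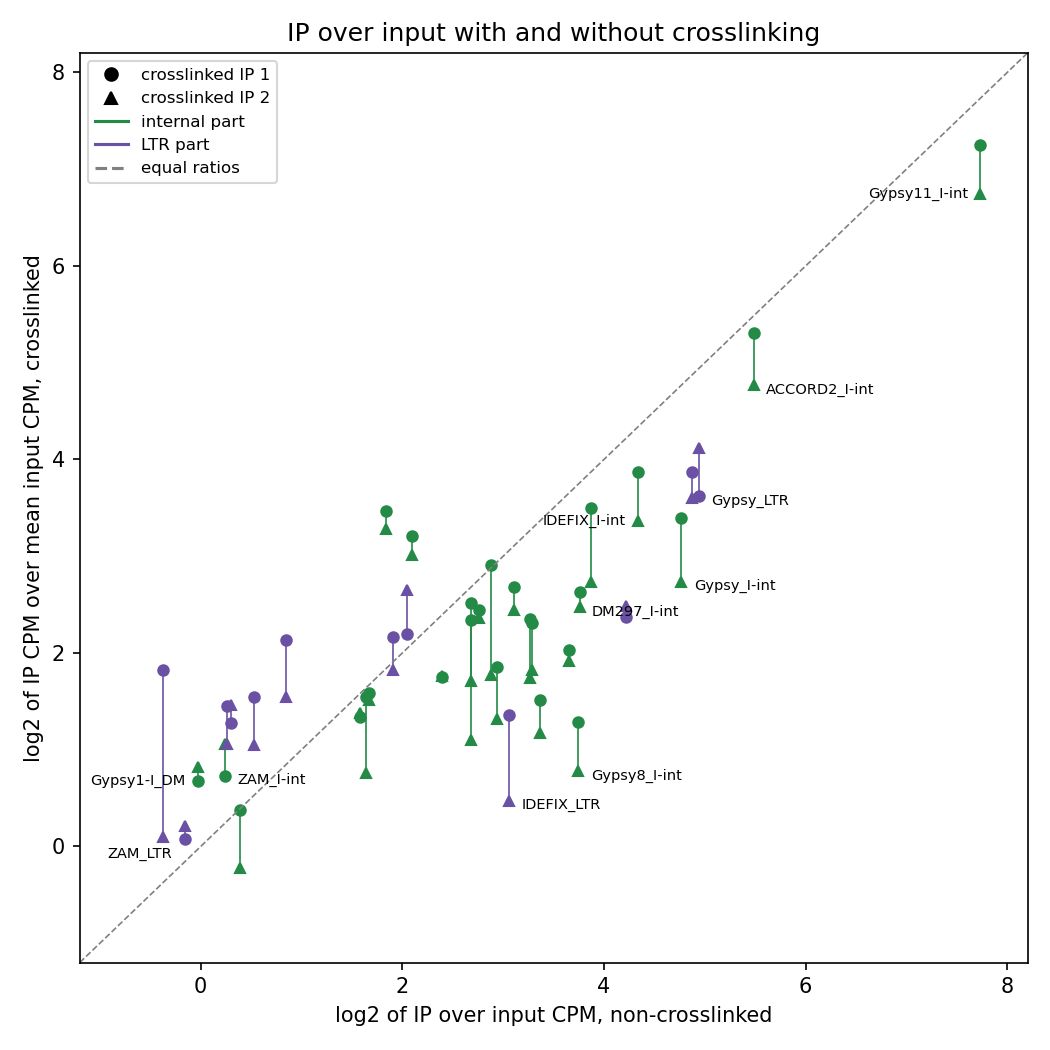
Log2 ratio of IP over input CPM without crosslinking (horizontal, 1 pair) against the ratio of each crosslinked IP library to the mean crosslinked input (vertical, circle and triangle joined by a line), for the 38 parts with over 3 reads in all libraries, with no scaling beyond CPM. Of these, 25 lie below the dashed line of equal ratios with both points and 11, among them ZAM_I-int and Gypsy1-I_DM, lie above it.

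The difference itself was tested as an interaction over all 6 libraries, with the lone non-crosslinked libraries assumed to vary like the crosslinked ones. Of the 49 members tested, 4 had a lower IP over input ratio with crosslinking than without, and 0 had a higher one (edgeR, quasi-likelihood test, Benjamini-Hochberg adjustment over 19331 entries). Over all entries 0.978% were lower and 1.88% were higher with crosslinking, and 13 members had an unadjusted p under 0.05. DESeq2's Wald test called 2 members, and the member median was -0.28 beside 0.24 over all entries.

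Of these 4, Gypsy8_I-int had the largest difference, with a log2 difference of ratios of -2.45 (SE 0.42, adjusted p = 0.00182 by edgeR's quasi-likelihood test). For IDEFIX_LTR the difference was -1.88 (SE 0.47, adjusted p = 0.0261). The other 2 were named only after their values were seen. TABOR_I-int had a difference of -1.76 (SE 0.41, adjusted p = 0.0182). It stood at 15.0 and 14.1 CPM in the crosslinked input libraries, 41.5 and 32.9 CPM in the crosslinked IP, and 6.38 and 65.6 CPM in the non-crosslinked pair. DM176_I-int had a difference of -1.44 (SE 0.39, adjusted p = 0.0441), with 6.27 and 8.48 CPM in the crosslinked input libraries, 30.1 and 27.9 CPM in the crosslinked IP, and 8.89 and 112 CPM in the non-crosslinked pair. Without crosslinked input 1 or crosslinked input 2 the count was 1, Gypsy8_I-int, and without crosslinked IP 1 it was 9. With library size without ribosomal RNA 5 members were higher and 3 lower. For ZAM_I-int the difference was 0.94 (SE 0.57, adjusted p = 0.421) and for Gypsy1-I_DM 1.03 (SE 0.51, adjusted p = 0.311), neither past the threshold.

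ZAM is annotated in 70 internal copies, and the division of reads between them differed between input and IP. Copy 60 and copy 48 held most ZAM_I-int reads in every library. Copy 60 held 64.5% of them in the non-crosslinked input, 57.8% and 57.4% in crosslinked input 1 and 2, 52.4% in the IP without crosslinking, and 37.8% and 37.6% in the IP with it. Copy 48 stayed between 32.2% and 36.7%. The 68 other copies together held 3.26% in the non-crosslinked input (interval 3.10% to 3.42%), 6.64% and 7.54% in the crosslinked input libraries, 13.1% in the IP without crosslinking (interval 12.5% to 13.8%), and 26.1% and 25.8% in the crosslinked IP.

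Within each treatment the share of the other ZAM copies was thus higher in the IP, and within inputs and within IP libraries it was higher with crosslinking. The crosslinked means were 7.09% ± 0.636 in the input and 25.9% ± 0.256 in the IP (SD, n = 2 each; log2 ratio 1.87, exact permutation p = 0.33, the smallest possible), and the non-crosslinked log2 ratio was 2.01. A share within ZAM_I-int needs no scaling between libraries. In CPM the other copies had 130 in the non-crosslinked input, 200 and 318 in crosslinked input 1 and 2, 617 in the IP without crosslinking, and 1565 and 1938 in the IP with it. Copies 60 and 48 together had 3858, 2808 and 3900 CPM in those inputs and 4083, 4425 and 5585 CPM in those IP libraries.

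**Figure D4:**
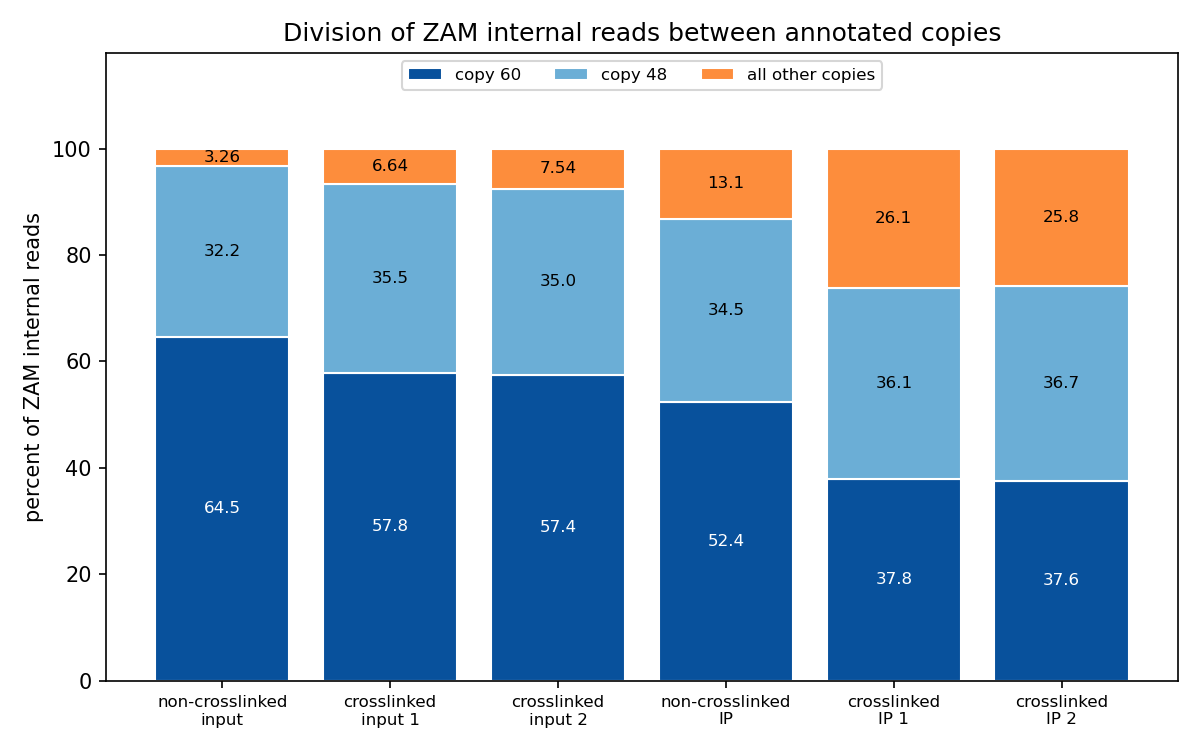
Percent of ZAM internal reads assigned to copy 60, copy 48 and all other annotated copies in each of the 6 libraries. The share outside copies 60 and 48 runs from 3.26% in the non-crosslinked input to 26.1% in crosslinked IP 1.

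Tested 1 copy at a time over 13469 features, copies 60 and 48 of ZAM_I-int gave log2 fold changes of -0.50 (SE 0.25, adjusted p = 0.120 by edgeR's quasi-likelihood test) and 0.16 (SE 0.25, adjusted p = 0.592). Copy 4, the next in level, rose from 42.5 and 60.5 CPM in the crosslinked input libraries to 232 and 286 CPM in the crosslinked IP, with 23.2 and 73.9 CPM in the non-crosslinked pair (1.54, SE 0.21, adjusted p = 0.000548). Of the 30 tested copies other than 60 and 48, 29 were called higher. Of the 30, 7 had under 10 reads in both crosslinked input libraries. The filter on low values, which works on CPM, let these 7 in only through the IP. It did the same for copies 34, 35, 39 and 43, which had at most 1.09 CPM in both crosslinked input libraries. They stay among the other 23, where copies 35 and 39 have the highest value. The other 23 had log2 fold changes of 0.44 to 3.85 with a median of 2.47, and 22 of them were called higher. With at least 10 reads in every library 17 of 19 were. Between 26 and 29 of the 30 were called higher when 1 crosslinked library was left out, and 30 with library size alone. In 29 of the 30, both crosslinked IP libraries were above the non-crosslinked IP in CPM, and in 28 both crosslinked input libraries were above the non-crosslinked input. The shares of all features with these orders were not computed, so neither count sets these copies apart from other features. These copies are not independent, since the authors' counting divides reads between copies and several have nearly equal values.

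Over all members, 155 of the 3948 copies had enough reads to be tested. Of these, 102 were higher in the crosslinked IP, where 29.5% of all features were higher, and 8 were lower, where 25.9% of all features were. ZAM_I-int provided 29 of the 102. Outside ZAM, 68 copies were called higher, and in 51 of them the non-crosslinked IP was above both crosslinked IP libraries in CPM, while among the 29 ZAM_I-int copies this held for 1. Over all 3757 entries called higher with copies summed it held for 66.4%, so the 51 are near the general share. Leaving out 1 crosslinked library lowered the count of higher copies to between 75 and 77. With at least 10 reads in every library, which leaves out, among others, copies that were tested only through their IP reads, 24 of 59 copies were higher (40.7%), near the 32.9% of all features under that filter, and the median log2 fold change of the copies was 0.29 in place of 1.68.

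Of the 9 tested copies of ZAM_LTR, 5 were called higher and 2 lower. All 5 had at most 4.58 estimated reads in a crosslinked input library, and the filter on low values let them in only through the IP. The 3 copies of ZAM_LTR with the most reads did not move together. Copies 30 and 29, which have nearly the same counts, fell, with log2 fold changes of -0.90 (SE 0.20, adjusted p = 0.00585) and -0.91 (SE 0.20, adjusted p = 0.00568) by edgeR's quasi-likelihood test, and copy 22 had 0.21 (SE 0.18, adjusted p = 0.343). Copy 30 had 252 CPM in the non-crosslinked input, 226 and 267 CPM in the crosslinked input libraries, 205 CPM in the non-crosslinked IP and 216 and 241 CPM in the crosslinked IP. The crosslinked input and IP ranges overlapped in CPM. With library size alone the values were -0.10 and -0.11 and neither copy passed the threshold, nor did either without crosslinked IP 1 (-0.85 and -0.86). For Gypsy1-I_DM, copies 57, 165 and 130 lay close together, with log2 fold changes of -0.24, -0.26 and -0.21 and adjusted p of 0.305, 0.277 and 0.369, and no copy held more than 14.4% of the reads of this element in a library.

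Of the tested copies, 28 had at most 3 reads in both crosslinked input libraries, so their folds are lower bounds against 3 reads in the input where they weigh most, after TMM scaling. All 28 were called higher, which the filter on low values favours, since such copies pass it only through their IP reads. In 18 of them the non-crosslinked IP was above both crosslinked IP libraries, beside 66.4% of all entries called higher with copies summed. The 8 with bounds of 20-fold or more, named after their values were seen, all had the non-crosslinked IP as the highest library. Copy 33 of Gypsy11_I-int was at least 121-fold higher in the crosslinked IP: it had 0.240, 0 and 0.0732 CPM in the non-crosslinked input and the crosslinked input libraries 1 and 2, 196 CPM in the non-crosslinked IP and 64.6 and 45.8 CPM in the crosslinked IP. This copy made up 94.2% of the Gypsy11_I-int reads in the IP without crosslinking, and 85.8% and 86.2% in the IP with it.

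Copy 157 of Gypsy_I-int was at least 50.1-fold higher, with 74.8 CPM in the non-crosslinked IP and 27.6 and 17.9 CPM in the crosslinked IP. Copy 90 of ACCORD2_I-int was at least 47.8-fold higher, with 60.9 CPM in the non-crosslinked IP and 25.4 and 18.1 CPM in the crosslinked IP. Copy 300 of IDEFIX_I-int, listed at 0 in all 3 inputs, was at least 27.6-fold higher, with 39.6 CPM in the non-crosslinked IP and 15.9 and 9.24 CPM in the crosslinked IP. The remaining 4 were copy 98 of Gypsy12A_LTR (at least 42.2-fold), copy 170 of QUASIMODO_I-int (38.1), copy 72 of Gypsy8_I-int (32.2) and copy 81 of ZAM_I-int (20.1).

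When the copies were tested for the interaction with crosslinking, an analysis added after seeing the data, 3 of 286 tested members were called, 2 higher (0.699%) and 1 lower (0.350%), beside 1.71% of features higher and 0.792% lower over all 20201 tested features. They were named after their values were seen. For copy 113 of Gypsy8_I-int the log2 difference was -2.90 (adjusted p = 0.00196 by edgeR's quasi-likelihood test), with 32.5 CPM in the non-crosslinked IP against 7.70 and 6.50 CPM in the crosslinked IP. Copies 218 and 220 of QUASIMODO_I-int went the other way, by 3.04 and 4.25 (adjusted p = 0.0078 and 0.00803). Copy 218 had 8.96 and 3.47 CPM in the non-crosslinked input and IP, 3.15 and 5.28 CPM in the crosslinked input libraries and 10.6 and 11.6 CPM in the crosslinked IP. Copy 220 had 6.48 and 0.991 CPM in the non-crosslinked pair, 2.02 and 1.76 CPM in the crosslinked input libraries and 5.21 and 4.11 CPM in the crosslinked IP. Its non-crosslinked IP level came from 2 reads, under the floor of 3, so the size of its difference is uncertain. For copy 218 it came from 7 reads.

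The ratio of LTR to internal reads of 1 element needs no scaling between libraries either, and it differed in direction between elements. Over all members, LTR parts took 12.4% ± 0.837 of reads in the crosslinked input and 9.32% ± 0.659 in the crosslinked IP (SD, n = 2 each; exact permutation p = 0.33), and 11.3% and 10.5% in the non-crosslinked input and IP (intervals 11.1% to 11.6% and 10.0% to 11.0%). Without ZAM the order was reversed, with 8.36% ± 0.273 in the crosslinked input and 12.1% ± 0.0291 in the crosslinked IP (SD, n = 2 each; exact permutation p = 0.33), and 8.39% and 12.5% in the non-crosslinked pair. Both shares pool elements, so they can change without a change in the ratio of any 1 element.

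ZAM had 13.6 LTR reads per 100 internal reads in the non-crosslinked input, 16.8 and 14.4 in crosslinked input 1 and 2, 10.4 in the IP without crosslinking, and 9.81 and 8.58 in the IP with it, so all IP libraries were below all inputs. IDEFIX had 69.1, 70.7 and 60.1 in the same order of inputs, 28.4 in the IP without crosslinking, and 11.3 and 8.70 in the IP with it, again with no overlap. Gypsy itself had 27.9 in the non-crosslinked input, 11.8 and 13.4 in crosslinked input 1 and 2, 31.6 in the IP without crosslinking, and 14.7 and 32.9 in the IP with it, with inputs and IP overlapping over all 6 libraries. Gypsy6 had more LTR than internal reads in every library, 1252 per 100 in the non-crosslinked input, 1596 and 2754 in crosslinked input 1 and 2, 228 in the IP without crosslinking, and 921 and 1111 in the IP with it. Gypsy12 had more in the inputs, with 222 in the non-crosslinked one and 400 and 355 in crosslinked input 1 and 2, beside 74.8 in the IP without crosslinking, and 117.9 and 95.5 in the IP with it.

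Of 25 elements with both parts, 13 had at least 50 reads on each part over the 6 libraries. The ratio was lower in both crosslinked IP libraries than in both crosslinked input libraries for 6 of them, higher for 6 and overlapping for 1. The gap was small for some, such as QUASIMODO (7.66 in the higher input, 7.75 in the lower IP) and Gypsy (13.4 and 14.7), both among the higher. Among the lower, DM297 had 5.30 in the lower input and 4.38 in the higher IP. For 2 libraries against 2 an exact permutation test cannot give a p under 0.33. The same count over other elements was not made. In the non-crosslinked pair it was lower in the IP for 9 of the 13. Gypsy1, at the other end from Gypsy6, had 0.192 and 0.209 LTR reads per 100 internal reads in the crosslinked input libraries and 0.578 and 0.716 in the crosslinked IP, with 0.186 and 0.784 in the non-crosslinked pair.

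**Figure D5:**
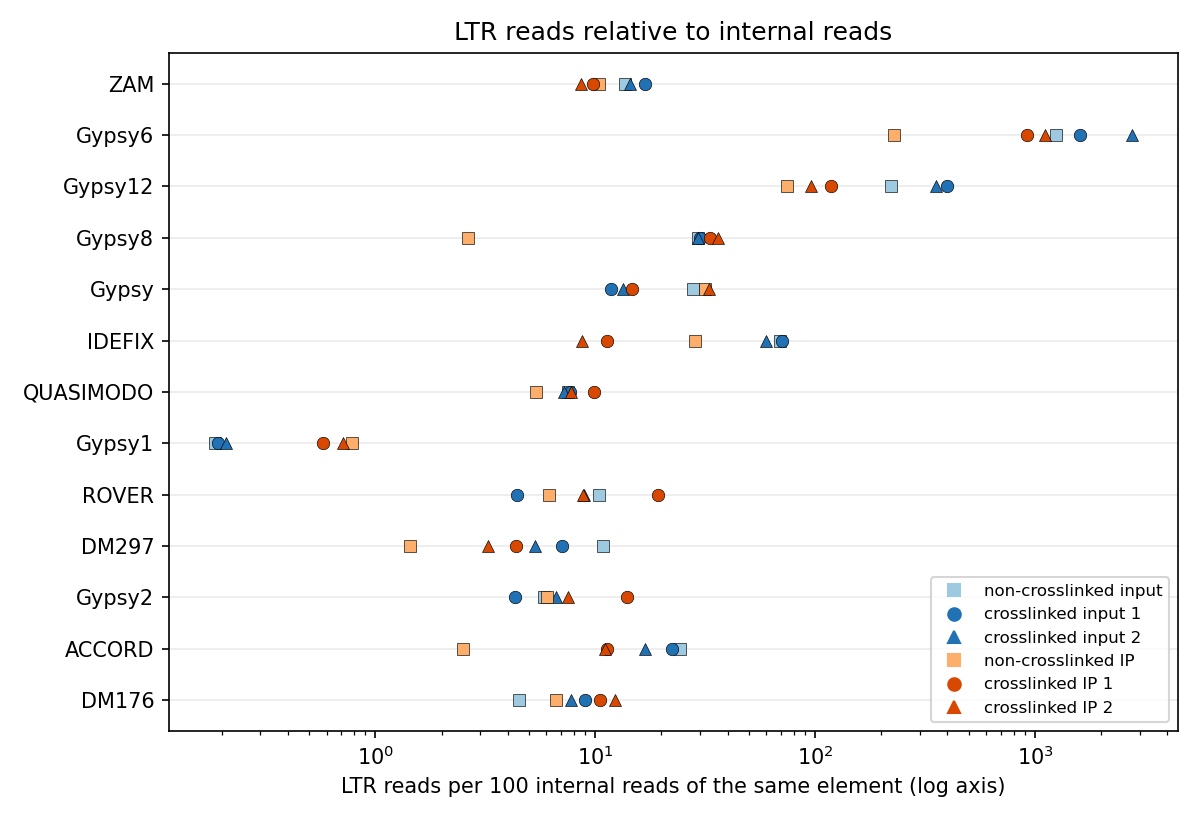
LTR reads per 100 internal reads (log axis) for the 13 elements with at least 50 reads on each part, 1 point per library, blue for inputs and orange for IP. ZAM and IDEFIX have all IP points left of all input points, Gypsy1 has them on the right, and Gypsy6 has more LTR than internal reads in all libraries.

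The flamenco locus, whose transcript holds remnants of many of these elements, gives a further comparison from the same libraries. Its intron features summed to 297.3 CPM in the non-crosslinked input, 232 and 269 CPM in the crosslinked input libraries, 4698 CPM in the non-crosslinked IP and 1975 and 1524 CPM in the crosslinked IP. The feature annotated as the flamenco piRNA cluster had 4.85, 3.86 and 4.56 CPM in those inputs, 73.0 CPM in the non-crosslinked IP and 26.0 and 24.7 CPM in the crosslinked IP. All IP libraries were above all inputs with the non-crosslinked IP highest, the order also seen for Gypsy_I-int, IDEFIX_I-int, DM297_I-int and Gypsy11_I-int and not for ZAM_I-int or Gypsy1-I_DM. A non-crosslinked IP above both crosslinked IP libraries was common, at 66.4% of all 3757 entries called higher, so it is not particular to flamenco and these elements. The sources used here do not say whether reads were counted by strand, so reads from an element's own transcript and from remnants in the cluster cannot be told apart.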

How the data were processed

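Each library has a table with 1 value per annotated feature in 2 units. The authors deposited estimated counts, in which reads can be divided between features, and RPM values, the same counts scaled to a total of 1000000; the unit was read from the values. Per the submitters' processing notes, bcl2fastq 2.19, STAR 2.5.2b and bedtools 2.29.0 were used; the notes name the builds dm6 and mm10 without roles, so no coordinates are given. Treatment of duplicate reads, strand and multiple alignments is not given in the sources used here. A deposited table of ratios has no header or formula and was not used. Reads without annotation, 2.15% to 3.23% of an input and 7.87% to 13.6% of an IP library, entered neither library sizes nor tests.

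Estimated counts of transposon copies were summed by element and part and rounded to whole numbers; other features stayed as listed. Crosslinked IP and input were compared with edgeR 4.0.16 in R 4.3.3 (annotated reads as library sizes, TMM factors, filterByExpr, quasi-likelihood F test, two-sided, Benjamini-Hochberg adjustment over the whole table, threshold 0.05; common dispersion 0.018). Single copies and the interaction with crosslinking were fitted likewise. A standard error is the fold change in log2 over the root of its F value. CPM values are counts per 1000000 annotated reads without TMM factors. Counts were simulated from 1 profile common to all libraries, with a fixed dispersion and 200 entries changed 4-fold (log2 change of 2). The comparison recovered 59.6% of the 141 changed entries tested, among 10736 entries, and 3.45% of its calls were false. The interaction recovered 10.4% of 173, among 14601 entries. In the data 3757 entries were called higher and 3645 lower, so the simulated rate of false calls does not carry over to them. Shares have Wilson intervals at 95% where there is 1 library. DESeq2 1.42.0, limma 3.58.1 on the deposited RPM values (pseudocount 1), Python 3.11.15, pandas 2.3.3, scipy 1.17.1 and matplotlib 3.10.9 were used beside it. Alternatives were other scalings, filters, tests, thresholds and controls, the replicate block and leaving out each crosslinked library.

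Members, lists and alternatives were chosen with earlier results of these data known. Element parts are named if they belong to ZAM, IDEFIX or gypsy itself, are among the 10 highest by mean CPM, or among the 5 largest rises or falls past the threshold whose crosslinked IP and input libraries do not overlap after TMM scaling. Of copies, the 3 highest in each of the 3 highest parts are named, and other named features are said to be chosen after their values were seen. Replicate numbers did not pair the libraries: deviations of same-numbered libraries correlated by 0.07 over 13079 entries. No sequences are shown.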

Additional observations from a re-analysis of the deposited data

Results flagged for a closer look

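The IP over input ratio differed with crosslinking, by the edgeR interaction test, for 4 element parts and 3 single copies. All 4 element parts had a lower log2 ratio with crosslinking: Gypsy8_I-int by -2.45, IDEFIX_LTR by -1.88, TABOR_I-int by -1.76 and DM176_I-int by -1.44. The single copy 113 of Gypsy8_I-int differed by -2.90 in the same direction. Copies 218 and 220 of QUASIMODO_I-int differed by 3.04 and 4.25 in the other direction, from 7 and 2 reads in the non-crosslinked IP. Each rests on 1 non-crosslinked input and 1 non-crosslinked IP, whose own spread is unknown. Groups of 2 libraries are too small for a check of single libraries that stand apart.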

How the results depend on the processing

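The count of 25 element parts higher in the crosslinked IP stayed between 18 and 28, or 23 to 27 with 1 crosslinked library left out, except for 38 with library size alone and with limma on RPM, and 0 with the inputs and the non-crosslinked IP as control, where 2 of all 15378 entries passed and 3 members had an unadjusted p under 0.05. The 2 lower parts became 1 with all 6 libraries in 1 fit, 0 with DESeq2 size factors, DESeq2's Wald test, library size alone, limma, that control, a threshold of 0.01 or a 2-fold minimum, and 0 to 2 with a library left out. The 102 higher copies of 155 became 24 of 59 with at least 10 reads in every library and 154 with no filter beyond 1 read, and the 8 lower copies 1 with library size alone and 17 with no filter (5 to 9 with a library left out). The 4 interaction calls became 9 with at least 10 reads in every library, 2 with the Wald test, 8 with library size without ribosomal RNA and 1 at a threshold of 0.01 (1 to 9 with a library left out). The 3 copy interactions became 6 with library size alone and 15 without ribosomal RNA (3 to 14 with a library left out). The member median of 1.13 became 0.28 with the non-crosslinked IP in the control and 1.97 with library size alone. The log2 ratio of the member share, 0.91, became -0.22 without ribosomal RNA, 0.19 over LTR transposon reads and 1.19 without ZAM (0.72 to 1.12 with a library left out). That of the LTR share, -0.41, became 0.53 without ZAM and -0.67 for ZAM, IDEFIX and gypsy with the other elements named by a word.

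These log2 fold changes turned sign. With at least 10 reads in every library ZAM_I-int became -0.21, IDEFIX_LTR -0.21, Gypsy8_I-int -0.088, copy 48 of ZAM_I-int -0.095 and copy 22 of ZAM_LTR -0.045. Without ribosomal RNA these 5 were -0.22, -0.20, -0.087, -0.17 and -0.12, and with no filter -0.17, -0.17, -0.053, -0.14 and -0.0996. With library size alone ZAM_LTR became 0.15, Gypsy1-I_DM 0.75, ROVER-I_DM 0.081, copy 60 of ZAM_I-int 0.29 and copies 57, 165 and 130 of Gypsy1-I_DM 0.56, 0.55 and 0.59. With limma on RPM ZAM_LTR became 0.057, Gypsy1-I_DM 0.66 and ROVER-I_DM 0.0098. With the non-crosslinked IP in the control Gypsy_LTR became -0.10, IDEFIX_LTR -0.94, Gypsy1-I_DM 0.091, DM297_I-int -0.089 and Gypsy8_I-int -0.083. With a library left out ZAM_I-int ranged from -0.054 to 0.25, IDEFIX_LTR from -0.36 to 0.57 and Gypsy8_I-int from -0.052 to 0.50. Causes other than scaling and the smaller set of entries or libraries were not tested.

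The fit with the replicate block gave 27 higher and 1 lower element part and 103 higher and 8 lower copies, and ZAM_LTR was then not past the threshold; the replicate numbers did not pair the libraries. With 2018241 to 2921685 annotated reads in the IP libraries, 12 element parts and most of the 3948 copies were too low to test.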
